A study of Mus musculus with 4 samples.

Results

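The genes of TGF-beta and BMP signaling examined here are 51 named ligands, receptors, SMAD proteins, extracellular antagonists, latency proteins and direct targets. They were chosen by symbol and role, with earlier results of these data known. The deposited expression table of 24689 genes held 47 of them, and 43 had a mean of at least 1 CPM (reads of a gene scaled to the depth of its library) over the 4 libraries and were tested among 13276 genes. Bmp2, Bmp7, Inhbb and Nog were not analysed here. Bmp4, Bmp6, Grem1 and Tgfbi had too few reads for the test and are given as reads.

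RNA was sequenced from HT-22 cells, an immortalized mouse hippocampal line. The 2 libraries of the first group came from cells with induced Pja2 (titled Pja2-pb), and the 2 of the other from uninduced control cells (titled WT). The product of Pja2 is a ubiquitin ligase of the RING class. All cells were at passages 21 to 24, and neither the means of induction nor whether both groups were cultures of the same line is given in the sources used here. The labels leave it unsaid if replicates were cultured apart, and p-values reflect the spread among these 4 libraries alone. Reads in genes numbered 30080376 and 35262653 in induced cells, against 25787452 and 31010351 in control cells. Pja2 had 54830 and 54244 normalized reads in induced cells and 6167 and 5881 in control cells, so the libraries differed in the way their labels give. A normalized read is a read count divided by the library factor of the deposited table. Of 12 neuronal markers listed for a check of the label, 7 were in the table and 3 were tested (Eno2, Syn1 and Tubb3). Of these 0 passed the test described next, while Dcx, Nefl, Slc17a7 and Syp were too low to test. Eno2 had 3879 and 3407 normalized reads in induced cells and 3965 and 4107 in control cells. Syn1 had 1072 and 1170 against 1186 and 1087 in control cells, and Tubb3 711 and 728 against 622 and 574. The fibroblast markers Col1a1 and Col1a2 were at 81720 to 83270 and 170583 to 173608 normalized reads in induced cells and 70005 to 82796 and 171347 to 189826 in control cells. Of the 8 fibroblast markers, all in the table and 7 tested, 2 fell (Col3a1 and Dcn). Col1a1 and Col1a2 were the highest of the set. Lum was too low to test, at 0 and 2.78 normalized reads in induced cells and 3.77 and 13.7 in control cells.

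TGF-beta, activin and BMP ligands bind pairs of type I and type II receptor kinases, which phosphorylate receptor SMADs (SMAD2 and SMAD3 for TGF-beta and activin, SMAD1, SMAD5 and SMAD9 for BMP). These enter the nucleus with SMAD4 and act on target genes. Among the targets are genes of the pathway's own brakes, such as inhibitory SMADs and SKI-family corepressors. TGF-beta is secreted in a latent complex that LTBP proteins tether to the matrix, and in fibroblast-like cells it is known for its control of matrix and contractile genes.

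Of the 43 tested members, 4 rose in induced cells (Fstl1, Skil, Ltbp1 and Smad7), 0 fell and 39 did not pass the test. Among all 13276 tested genes, 3.42% passed in either direction, 2.08% rose and 1.34% fell. The call rule was an adjusted p under 0.05 in limma. At an unadjusted p under 0.05, 12 members were higher and 1 was lower (Acvr1b), against 10.3% and 8.78% of all tested genes, and limma voom on the recovered reads also called 4 higher and 0 lower. Both induced libraries lay above both controls for 18 members and below them for 5, against 26.2% and 25.1% of all tested genes. The median log2 fold change was 0.07 for the members and 0.00 for all tested genes. The count of members that rose was 2 without induced replicate 1, without induced replicate 2 or without control replicate 1, namely Fstl1 and Skil each time. Without control replicate 2 it was 5, with Id1 and Id3 added and Smad7 lost. In bulk RNA, fewer cells with a transcript and less of it per cell cannot be told apart.

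**Figure D1:**
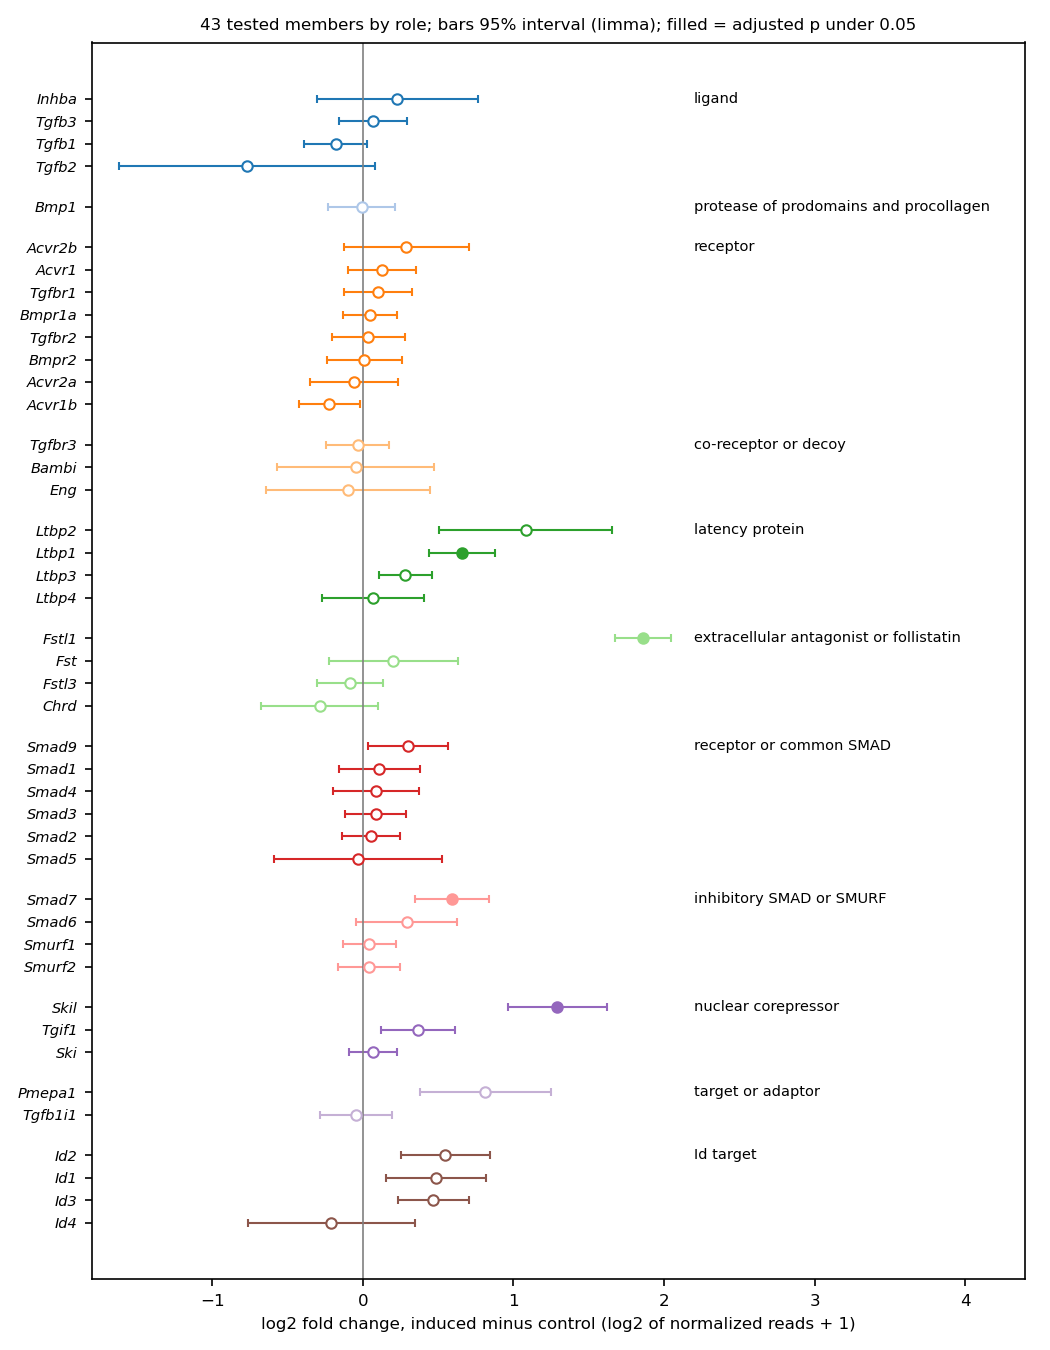
Log2 fold change of each of the 43 tested members (x axis, induced minus control on the log2(normalized reads + 1) scale) with its 95% interval from limma, grouped by role (n = 2 libraries per group). Filled points passed an adjusted p of 0.05. Ligands, receptors and transducing SMADs lie between -0.77 (Tgfb2) and 0.30 (Smad9), with no filled point. The 4 filled points, Ltbp1, Fstl1, Smad7 and Skil, lie to the right.

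No ligand passed the test, with 4 tested. Genes are called abundant by normalized reads per kilobase of exon. Tgfb1, the main TGF-beta ligand of many cells, had 1036 and 1077 normalized reads in induced cells and 1239 and 1157 in control cells, with both induced libraries lower (adjusted p = 0.319). Tgfb3, a close relative and the tested ligand of highest level, had 1141 and 1271 in induced cells and 1177 and 1128 in control cells (log2 fold change 0.06, SE 0.09, adjusted p = 0.752), and the groups overlapped. Tgfb2, the third TGF-beta, was low and lower in both induced libraries, at 39.1 and 74.2 against 90.5 and 94.8 in control cells (adjusted p = 0.301). Inhba, the beta A subunit of activin and inhibin, had 159 and 215 in induced cells and 175 and 142 in control cells, with overlap. Per kilobase of exon, Tgfb3 averaged 357 normalized reads and Tgfb1 210 in induced cells, against 341 and 238 in control cells, and Inhba and Tgfb2 lay below 30 in both groups. The BMP ligands in the table had few reads. Bmp4 had 0 and 4 reads in induced cells and 13 and 3 reads in control cells, and Bmp6 had 0 and 3 reads in induced cells and 0 in both controls, too few to show a difference at this depth. Bmp1, a protease of procollagen and of the BMP antagonist chordin rather than a BMP ligand, had 3402 and 3866 normalized reads in induced cells and 3818 and 3481 in control cells (log2 fold change -0.01, SE 0.09, adjusted p = 0.973).

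All 8 receptor genes were expressed, and 0 passed the test. Log2 fold changes of the set lay between -0.22 and 0.29, and for 7 of the 8 the 95% interval stayed within 0.5 of 0 on the log2 scale. The exception was Acvr2b, an activin type II receptor, at 184 and 222 normalized reads in induced cells and 165 in both controls, with an interval that reached 0.70. Bmpr1a, a BMP type I receptor and the most abundant of the set, had 4511 and 4777 in induced cells and 4678 and 4316 in control cells (log2 fold change 0.05, SE 0.07, adjusted p = 0.770). Tgfbr1, the TGF-beta type I receptor, had 1359 and 1492 in induced cells and 1385 and 1274 in control cells, and Tgfbr2, the type II receptor, had 2431 and 2839 against 2675 and 2458. Both pairs of groups overlapped. Acvr1b, the activin type I receptor, was the one member lower at an unadjusted p under 0.05, with 1111 and 1194 in induced cells and 1351 and 1342 in control cells (log2 fold change -0.22, SE 0.08, adjusted p = 0.224). Bmpr2, Acvr1 and Acvr2a ranged from 694 to 4274 in induced cells and from 681 to 4536 in control cells. Of the 3 co-receptors and decoys, Tgfbr3 (betaglycan, which presents TGF-beta2 to its receptors) was the most abundant, at 7107 and 7758 in induced cells and 8078 and 7169 in control cells (log2 fold change -0.04, SE 0.08, adjusted p = 0.856). Eng, a co-receptor of endothelial cells, had 66.3 and 67.7 in induced cells and 72.9 and 70.6 in control cells. Bambi, a receptor without a kinase domain that acts as a decoy, had 99.0 and 114 against 122 and 99.0.

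Of the transducing SMADs 0 of 6 passed the threshold and their log2 fold changes ran from -0.03 to 0.30. Smad4, the partner common to both branches and the most abundant by mean, had 2981 and 2991 normalized reads in induced cells and 3153 and 2503 in control cells (log2 fold change 0.09, SE 0.12, adjusted p = 0.728). Smad2 and Smad3, the TGF-beta branch, had 1195 to 1244 and 2366 to 2605 in induced cells and 1172 to 1181 and 2262 to 2422 in control cells. Of the BMP branch, Smad1 had 969 and 1021 in induced cells and 998 and 851 in control cells. Smad9 was higher in both induced libraries, at 519 and 556 against 433 and 441 in control cells, and short of the threshold (log2 fold change 0.30, SE 0.11, adjusted p = 0.219). Smad5 showed a wide spread within both groups, with 3488 and 2236 in induced cells and 2511 and 3251 in control cells, and its groups overlapped fully. Among the 43 tested members, only Tgfb2 had a wider gap between its induced libraries (0.91 against 0.64 on the log2 scale).

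**Figure D2:**
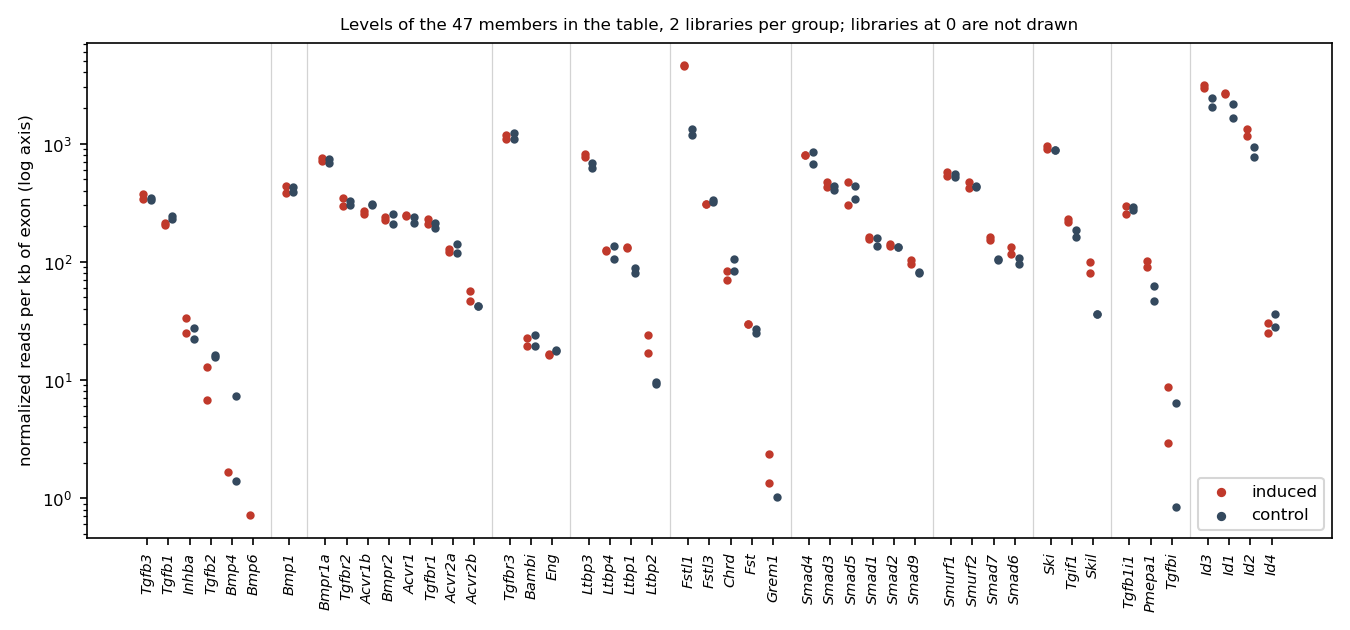
Level of each of the 47 members in the table (y axis, normalized reads per kilobase of exon, log axis), with induced libraries in red to the left and control libraries in dark blue, grouped by role. Id3, Id1 and Fstl1 are the highest, and Bmp4, Bmp6, Grem1 and Tgfbi the lowest.

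Of the 4 latency proteins 1 rose, and 3 had both induced libraries above both controls, against 2.08% and 26.2% of all tested genes. Ltbp1, which binds latent TGF-beta1 and stores it in the matrix, had 1407 and 1419 normalized reads in induced cells and 854 and 940 in control cells. It rose 1.58-fold (log2 fold change 0.66, SE 0.09, adjusted p = 0.0246), with both induced libraries above both controls. The call ended without induced replicate 1 (adjusted p = 0.0693), without induced replicate 2 (0.0838) and without control replicate 1 (0.0579), while the log2 fold change stayed between 0.59 and 0.73. Ltbp2, a matrix protein that does not bind latent TGF-beta, had 196 and 138 in induced cells and 75.4 and 79.0 in control cells (log2 fold change 1.08, SE 0.23, adjusted p = 0.0748). Ltbp3, the most abundant, had 6966 and 7416 in induced cells and 6163 and 5669 in control cells (log2 fold change 0.28, SE 0.07, adjusted p = 0.113). The induced libraries of both genes lay above the controls. Ltbp4 had 808 and 805 in induced cells and 871 and 678 in control cells, with overlap. Ltbp2 and Ltbp3 share exon bases with a gene on the other strand, and the library kit does not mark strand. Of all tested members, 14 share exon bases with another gene, while Fstl1, Skil, Ltbp1 and Smad7 do not.

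Ltbp1 has 2 annotated starts, and the window of 250 bases before and 50 bases after each is shown because Ltbp1 is a called member with a start in the RefSeq promoter table (build GRCm38.p6). Capitals mark CAGAC, the SMAD element, read on either strand (GTCTG on the other).
Ltbp1, chr17:75005279-75005578, plus strand: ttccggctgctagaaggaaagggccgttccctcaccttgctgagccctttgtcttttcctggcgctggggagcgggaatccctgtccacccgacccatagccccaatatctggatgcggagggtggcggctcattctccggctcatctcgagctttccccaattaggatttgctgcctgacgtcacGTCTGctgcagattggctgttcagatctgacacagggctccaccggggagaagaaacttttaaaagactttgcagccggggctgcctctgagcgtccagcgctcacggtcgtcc
Ltbp1, chr17:75178531-75178830, plus strand: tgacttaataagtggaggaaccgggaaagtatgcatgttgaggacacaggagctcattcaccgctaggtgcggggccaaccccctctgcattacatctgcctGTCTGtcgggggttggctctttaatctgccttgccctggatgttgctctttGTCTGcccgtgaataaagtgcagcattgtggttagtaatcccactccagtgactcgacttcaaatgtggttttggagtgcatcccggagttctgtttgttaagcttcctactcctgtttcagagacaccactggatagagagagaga
The first window holds 1 match and the second 2. No GTCTAGAC (the palindromic SMAD element), GGCGCC (a GC-rich element of BMP SMADs) or TGANTCA (the AP-1 element, N for any base) is in either window.

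Of the extracellular antagonists and follistatin family, 1 of 4 tested rose and 0 fell. Fstl1, a secreted glycoprotein related to follistatin, showed the largest log2 fold change of the 43 members. It had 22208 and 22738 normalized reads in induced cells and 6579 and 5819 in control cells, groups that were far apart. It rose 3.63-fold (log2 fold change 1.86, SE 0.08, adjusted p = 0.00127), and the call held whichever library was left out (adjusted p up to 0.00268). Per kilobase of exon its mean was 4573 in induced cells, the highest of all members there, against 1261 in control cells. Fst, follistatin itself, which traps activin, had 136 and 137 normalized reads in induced cells and 114 and 123 in control cells (adjusted p = 0.582). Fstl3, another activin-binding relative, had 761 and 756 against 788 and 823 in control cells (adjusted p = 0.646). Chrd (chordin, a BMP antagonist) had 443 and 524 in induced cells and 661 and 523 in control cells, and these groups overlapped. Grem1, another BMP antagonist, had 9 and 6 reads in induced cells and 0 and 4 reads in control cells.

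Fstl1 lies on chromosome 16, where 85 of 403 tested genes rose (21.1%) and the median log2 fold change was 0.31, against 2.08% and 0.00 over all chromosomes. Of the 3 tested genes to either side of it, Gtf2e1, Rabl3, Ndufb4, Lrrc58 and Gsk3b rose, with log2 fold changes of 0.66, 0.72, 0.58, 0.56 and 0.52, and Cox17 had 0.35 (adjusted p = 0.127). These neighbours were picked by position. The log2 fold change of Fstl1 was 1.86, and the part of the chromosome-wide shift in it was not tested. Chrd, on the same chromosome, had a log2 fold change of -0.29. Off chromosome 16, 3 of 41 tested members were called, against 2.82% of 12873 genes. Skil on chromosome 3 and Ltbp1 on chromosome 17 had 0 called genes among the 3 to either side. With 3.42% of all tested genes called, so few neighbours cannot show that a local shift was absent. The neighbours of Smad7 were not examined. Beside Skil the log2 fold changes ran from -0.53 (Kcnmb2) to 0.68 (Zmat3, adjusted p = 0.0528). Beside Ltbp1 they ran from -0.12 (Yipf4) to 0.31 (Fez2, adjusted p = 0.0767).

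**Figure D3:**
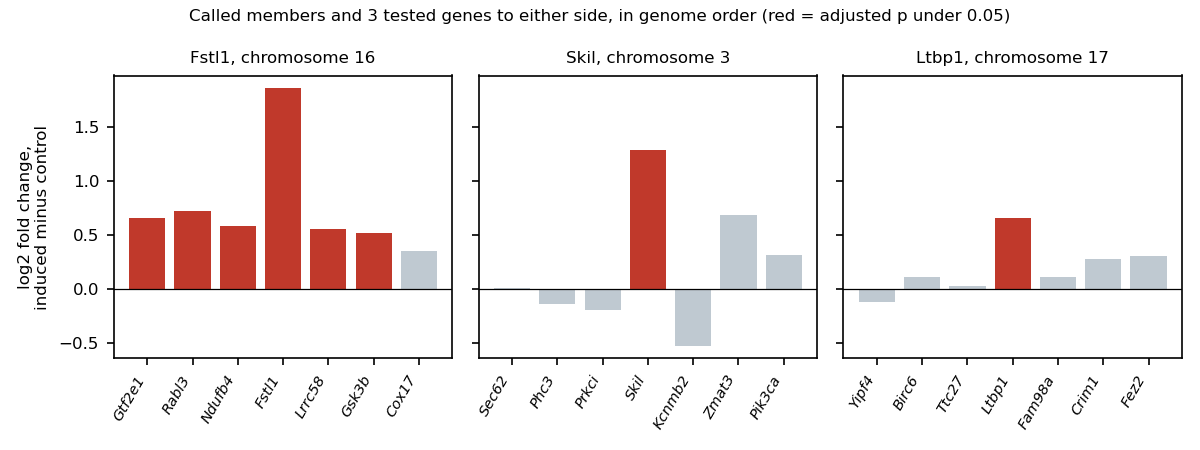
Log2 fold change (y axis, induced minus control) of Fstl1, Skil and Ltbp1 and of the 3 tested genes to either side of each, in genome order (x axis). Red bars passed an adjusted p of 0.05. Around Fstl1, 5 of 6 neighbours are red at 0.52 to 0.72, and around the other two members none is.

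The promoter window of Fstl1 is shown as that of the member with the largest log2 fold change. It holds none of the 4 motifs searched, so no letter is in capitals, and 66.7% of its bases are G or C.
Fstl1, chr16:37776805-37777104, plus strand: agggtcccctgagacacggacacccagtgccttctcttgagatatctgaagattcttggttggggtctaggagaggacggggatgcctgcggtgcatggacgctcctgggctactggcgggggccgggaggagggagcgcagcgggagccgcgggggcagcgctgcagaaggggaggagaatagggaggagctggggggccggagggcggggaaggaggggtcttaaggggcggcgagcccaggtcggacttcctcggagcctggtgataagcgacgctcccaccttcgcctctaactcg

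Among the intracellular brakes, Smad7 rose and the other 3 did not pass. Smad7, an inhibitory SMAD that blocks the type I receptor, had 692 and 732 normalized reads in induced cells and 468 and 476 in control cells, with both induced libraries above. It rose 1.51-fold (log2 fold change 0.59, SE 0.10, adjusted p = 0.0400). The call ended without any single library, with an adjusted p of 0.121 without induced replicate 1, 0.189 without induced replicate 2, 0.107 without control replicate 1 and 0.0878 without control replicate 2, and the log2 fold change stayed between 0.55 and 0.63. Smad6, the inhibitory SMAD of the BMP branch, had 427 and 374 in induced cells and 345 and 310 in control cells (adjusted p = 0.316). Smurf1, a ubiquitin ligase of receptor SMADs and the most abundant of the set, had 3379 and 3656 in induced cells and 3336 and 3487 in control cells (log2 fold change 0.04, SE 0.07, adjusted p = 0.791). Smurf2, its relative, had 2576 and 2916 against 2687 and 2645 in control cells.

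The nuclear corepressor Skil (SnoN, which binds SMADs and holds back their targets) rose. It had 779 and 963 normalized reads in induced cells and 352 and 354 in control cells. This is 2.47-fold (log2 fold change 1.29, SE 0.13, adjusted p = 0.0121). With any 1 library left out, the log2 fold change stayed between 1.14 and 1.44. The call ended in the limma fit without the variance trend (adjusted p = 0.0530). Its relative Ski had 5012 and 5340 in induced cells and 4948 and 4937 in control cells (log2 fold change 0.07, SE 0.06, adjusted p = 0.624). Per kilobase of exon, Skil averaged 89.8 in induced cells and 36.4 in control cells, and Ski 931 and 889. Tgif1, a homeodomain corepressor of SMADs, had 1303 and 1216 normalized reads in induced cells and 915 and 1038 in control cells (log2 fold change 0.37, SE 0.10, adjusted p = 0.130). The induced libraries of all 3 lay above both controls, as did those of 26.2% of all tested genes. For Ski the limma interval ran from -0.09 to 0.22 on the log2 scale, so its direction was not resolved.

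Of the other direct targets and adaptors, 0 of 2 tested passed. Pmepa1, a TGF-beta target that sequesters receptor SMADs, had 496 and 442 normalized reads in induced cells and 308 and 230 in control cells, with no overlap (log2 fold change 0.81, SE 0.18, adjusted p = 0.0754). Tgfb1i1 (Hic-5, a focal adhesion adaptor) had 1651 and 1429 in induced cells and 1544 and 1625 in control cells (log2 fold change -0.04, SE 0.10, adjusted p = 0.842). Tgfbi, a secreted matrix protein named for its induction by TGF-beta, had only 30 and 12 reads (32.6 and 11.1 normalized) in induced cells and 19 and 3 reads (23.9 and 3.16 normalized) in control cells.

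Id1, Id2 and Id3 encode helix-loop-helix proteins that block bHLH factors, and they are classic BMP targets. Each was higher in both induced libraries, as were 26.2% of all tested genes, and 0 of the 4 Id genes passed the test. Id1 had 3102 and 3048 normalized reads in induced cells and 1911 and 2524 in control cells (log2 fold change 0.49, SE 0.13, adjusted p = 0.138). Id2 had 3250 and 2825 in induced cells and 1881 and 2284 in control cells (log2 fold change 0.55, SE 0.12, adjusted p = 0.0788). Id3 had 5664 and 5332 in induced cells and 3651 and 4324 in control cells (log2 fold change 0.47, SE 0.10, adjusted p = 0.0667). In all 3, control replicate 2 was the higher control. Without it Id1 and Id3 passed, with an adjusted p of 0.0257 and 0.0352 and log2 fold changes of 0.69 and 0.59. Without control replicate 1, the 3 log2 fold changes were 0.28, 0.41 and 0.35, and 0 of them passed. Id4 was low, at 117 and 95.5 in induced cells and 108 and 139 in control cells, with overlap. Per kilobase of exon, Id3 averaged 3070 and Id1 2651 in induced cells, against 2226 and 1912 in control cells, where they were the 2 highest members.

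The promoter windows of Id2 and Id3 are shown because these Id genes came closest to the threshold. Capitals mark GGCGCC in Id2 and CAGAC, on either strand, in Id3.
Id2, chr12:25096043-25096342, minus strand: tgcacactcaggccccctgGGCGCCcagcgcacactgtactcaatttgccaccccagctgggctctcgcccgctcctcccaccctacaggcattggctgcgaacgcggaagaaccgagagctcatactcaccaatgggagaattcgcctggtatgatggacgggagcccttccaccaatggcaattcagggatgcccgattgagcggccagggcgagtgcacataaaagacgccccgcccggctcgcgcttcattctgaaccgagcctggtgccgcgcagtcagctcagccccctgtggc
Id3, chr4:136143572-136143871, plus strand: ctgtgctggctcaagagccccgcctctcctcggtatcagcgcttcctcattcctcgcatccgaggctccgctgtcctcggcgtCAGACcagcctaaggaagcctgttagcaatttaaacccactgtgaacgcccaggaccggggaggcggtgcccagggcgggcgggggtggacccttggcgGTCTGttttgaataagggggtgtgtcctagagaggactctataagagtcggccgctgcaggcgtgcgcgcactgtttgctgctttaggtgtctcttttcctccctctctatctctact
Id2 holds 1 GGCGCC and no CAGAC, and Id3 holds 2 CAGAC and no GGCGCC. RefSeq windows were found for 36 members (46 windows, build GRCm38.p6). CAGAC on either strand was in 22 of them (47.8%), against 49.6% of all 32851 windows. GGCGCC was in 16 (34.8%), against 11.9% of all windows. This motif is made of G and C alone, and the base content of member windows and all windows was not compared. The windows of Fstl1 and Ltbp1 lack GGCGCC, and a relation of the motif to the changes was not tested. GTCTAGAC was in 1 (Smad6) and TGANTCA in 1 (Ltbp3), against 0.213% and 7.81% of all windows. The matches in the printed windows do not overlap each other, and windows of 1 gene can share bases.

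**Figure D4:**
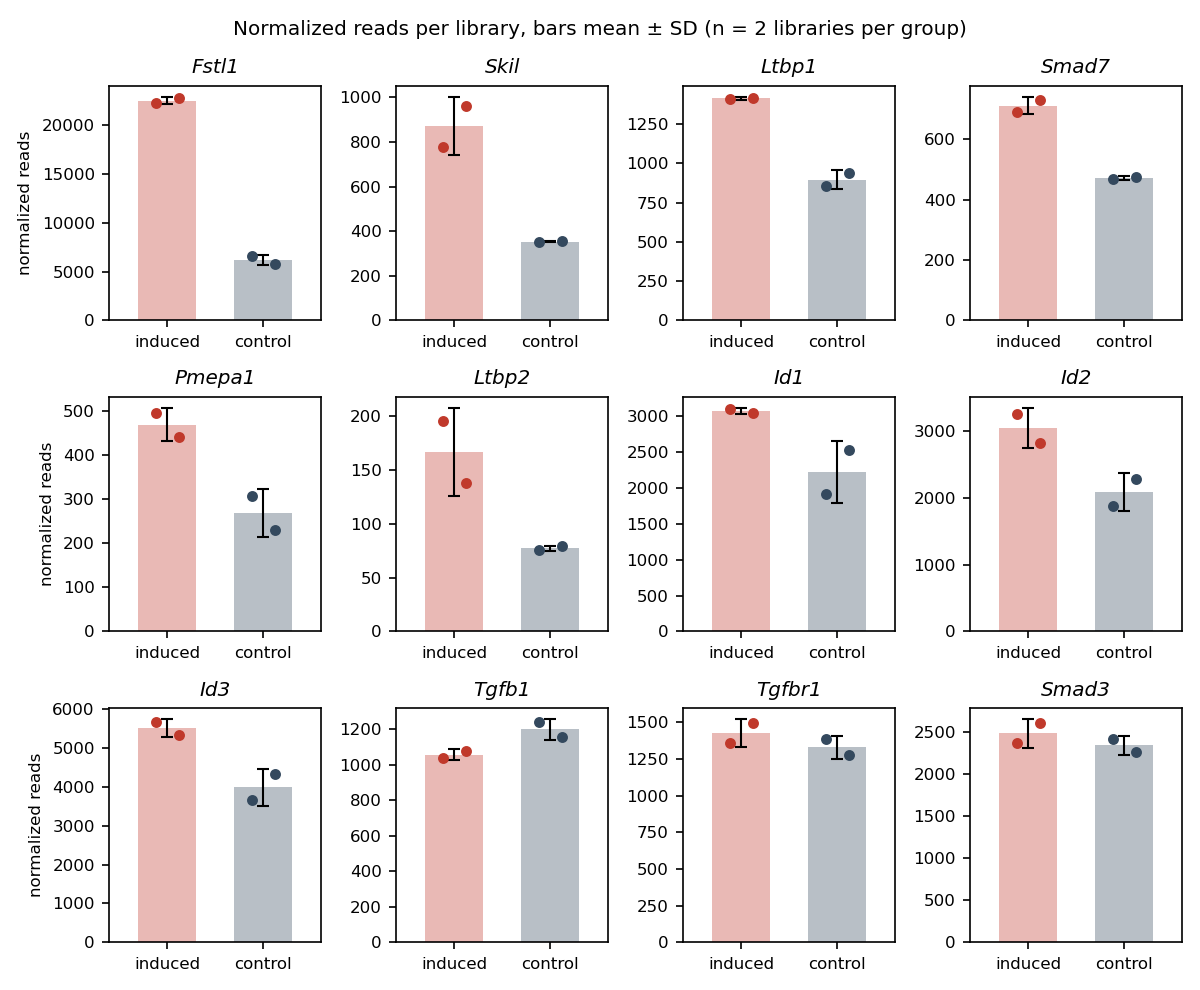
Normalized reads per library (y axis) of 12 members, with induced cells in red on the left and control cells in dark blue on the right. Bars are means, error bars SD (n = 2 libraries per group) and points libraries. In the 9 panels from Fstl1 to Id3 both induced points lie above both control points, in the Tgfb1 panel both lie below, and in the Tgfbr1 and Smad3 panels the groups overlap.

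Other genes of the pathway, taken from 7 lists, were read in the same fit. Over the lists 94 further genes were tested, of which 11 rose and 6 fell (18.1%), against 3.42% of all tested genes. Their median log2 fold change was 0.05. The lists were chosen with earlier results of these data known, so the share called in them is no test of the pathway. The 17 calls became 7 without induced replicate 1 and 9 without control replicate 1, and 12 and 14 without induced replicate 2 and control replicate 2. Of 2 further ligands and 4 further receptors and co-receptors, 0 passed in limma or limma voom, with 1 lower and 0 higher at an unadjusted p under 0.05. Of the 31 intracellular regulators of SMADs 1 rose, Map3k7 (TAK1, the kinase of the SMAD-independent branch), with 4091 and 4372 normalized reads in induced cells and 2984 and 3109 in control cells (log2 fold change 0.47, adjusted p = 0.0288), a call that ended without any 1 library (up to 0.110).

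Of 9 further extracellular antagonists and modulators, 2 rose and 2 fell. Bgn (biglycan, a proteoglycan that binds TGF-beta) had 60720 and 58521 normalized reads in induced cells and 35412 and 35262 in control cells (1.69-fold, adjusted p = 0.00698). Dcn (decorin, a proteoglycan that binds and restrains TGF-beta) fell, to 222 and 329 in induced cells against 1049 and 765 in control cells (adjusted p = 0.0259). Htra3, a secreted protease, fell as well, with 225 and 227 in induced cells and 406 and 393 in control cells (adjusted p = 0.0310). The Dcn call ended without control replicate 1 (adjusted p = 0.0676) and the Htra3 call without any 1 library (up to 0.102). Of 10 activators of latent TGF-beta, 1 rose and 1 fell. Itgb5, a partner of the alpha v integrin, had 4851 and 4434 in induced cells and 1999 and 2037 in control cells (2.30-fold, adjusted p = 0.00363), and like Fstl1 it lies on chromosome 16. Plau (urokinase, which activates plasmin) had 576 and 550 in induced cells and 933 and 840 in control cells (adjusted p = 0.0347), a call that ended without any 1 library (up to 0.117). Thbs1, a matrix protein that frees TGF-beta from its latent complex, had 4357 and 5046 in induced cells and 3047 and 1990 in control cells and did not pass (adjusted p = 0.0753, named after its values were seen).

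SMAD target genes of TGF-beta moved both ways, with 5 higher and 3 lower of 30 tested and a median log2 fold change of 0.07. Acta2 (smooth muscle actin) had 393 and 403 normalized reads in induced cells and 207 and 143 in control cells (2.27-fold, adjusted p = 0.0402). Cdkn1a (the p21 inhibitor, also a p53 target) had 6375 and 6704 against 3594 and 4007 in control cells, and Junb, an AP-1 subunit, 2269 and 2075 against 1291 and 1415 (adjusted p = 0.0105 and 0.0226). Further calls, named after their values were seen, were a rise of Timp1 (1.37-fold) and falls of Ctgf, Cyr61 and Col3a1. Ctgf had 1788 and 1955 in induced cells and 3135 and 2842 in control cells, Cyr61 had 1500 and 1684 against 2364 and 2580, and Col3a1 47479 and 48561 against 81869 and 68553. Ctgf and Cyr61 are matricellular genes that are also YAP targets. Junb, Cdkn1a, Ctgf and Col3a1 share exon bases with another gene. Leaving out 1 library ended the calls of Acta2 (adjusted p up to 0.109), Junb (0.0648), Timp1 (0.183), Ctgf (0.0553), Cyr61 (0.0734) and Col3a1 (0.0858), and that of Cdkn1a held. Of 8 SMAD targets of BMP, 2 rose and 0 fell. Klf4, a zinc-finger factor, had 3762 and 3740 in induced cells and 2487 and 2416 in control cells, and Atoh8, a bHLH factor, 2963 and 2969 against 1916 and 2080 (1.53-fold and 1.48-fold, adjusted p = 0.0121 and 0.0226). The Atoh8 call ended without induced replicate 1 (adjusted p = 0.0633), induced replicate 2 (0.0703) or control replicate 1 (0.0508). Hes1, a bHLH repressor gene on chromosome 16, had 57.6 and 52.9 in induced cells and 13.8 and 7.37 in control cells. It lay just outside the threshold (adjusted p = 0.0506, named after its values were seen), and limma voom called it higher (adjusted p = 0.0380). Hes1 lay below 1 CPM in both controls and passed the filter only through the induced libraries. Neither p-value is therefore used as support for a rise.

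**Figure D5:**
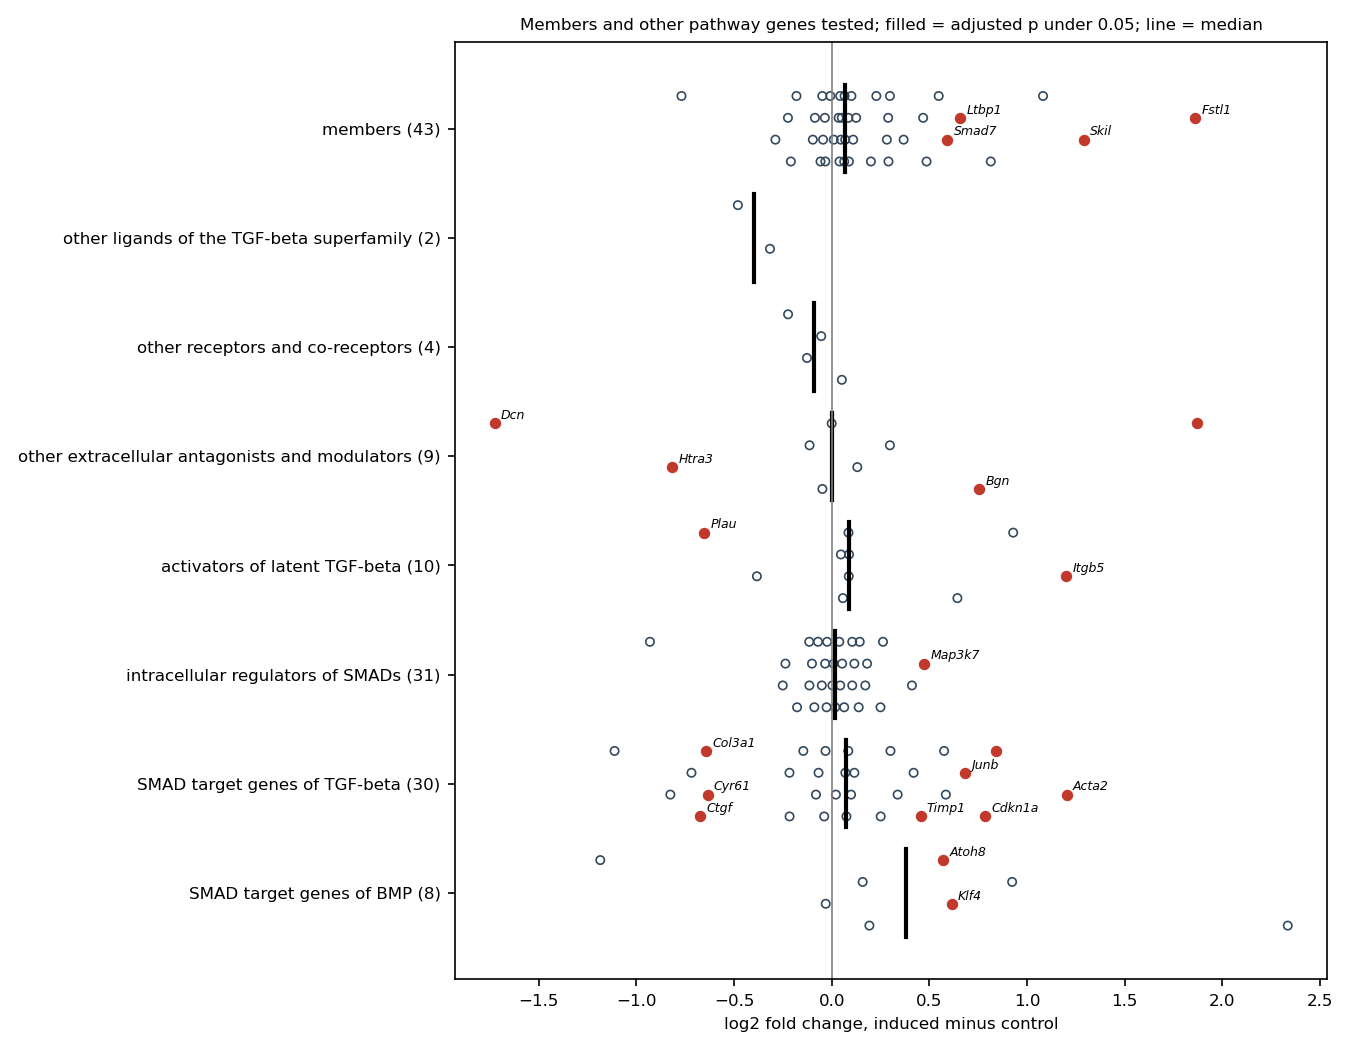
Log2 fold change (x axis, induced minus control) of the 43 tested members and of the tested genes of 7 further pathway lists (y axis, number of genes in brackets). Filled red points passed an adjusted p of 0.05 and black lines mark medians. Of the labelled genes Fstl1 and Skil lie farthest to the right, and Dcn farthest to the left.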

How the data were processed

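Per the labels' protocols, RNA was taken with Trizol and sequenced after a TruSeq preparation, a kit that does not mark strand. HISAT, Cufflinks and the build mm9 are named in the submitters' processing notes. How reads were counted and scaled was not stated there. Values in the authors' deposited table are on a log2 scale. Undoing the log and the pseudocount of 1 left whole multiples of 1 step per library for 100% of values (tolerance 0.01), which gives log2(normalized read count + 1) as the unit and the reads themselves. Changes of genes with few reads are understated by the pseudocount of 1.

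Testing covered genes averaging 1 CPM or more, in limma 3.58.1 (R 4.3.3) with a variance trend, both groups and no covariate, and every adjusted p is Benjamini-Hochberg over 13276 genes, two-sided. A fold is the ratio of mean normalized reads, and SE and 95% intervals are limma's, on 2 residual degrees of freedom before moderation. Replicate libraries were not copies: their chi-square per gene was 14.0 in induced cells and 18.3 in control cells. The fit was also run on simulated counts with the same replicate noise setting for every gene, and no statement here rests on that run. Exon lengths, overlaps and chromosomes came from GENCODE (GRCm38) by gene ID, for 47 of 47 members. Statistics were planned for Pja2, members past the threshold and the most abundant of each role, and up to 4 called genes of each further list. Members short of the threshold were described in addition, and 2 called genes of the further lists enter the counts and are not reported here. The members and lists were chosen with earlier results of these data known. Alternatives were other filters, scalings, pseudocounts, voom, no trend, a replicate block and leaving out each library.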

Additional observations from a re-analysis of the deposited data

How the results depend on the processing

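Members that rose numbered 2 without the expression filter (Fstl1 and Skil) and 1 without the variance trend (Fstl1), against 4. Other pathway genes called numbered 6 and 3 under these settings, against 17, and all called genes 159 and 116, against 454. With 1 library left out, the counts ran from 2 to 5, from 7 to 14 and from 232 to 305, in fits with fewer degrees of freedom. Total-read scaling, quantile normalization, a pseudocount of 10, a filter of 5 CPM and voom kept each of these counts within 1.5 times. The fit without chromosome 16 genes, added after seeing the data, called 3 members, 15 pathway genes and 324 genes. Same-numbered libraries showed no shared deviation across the groups (r = -0.0950 over 13276 genes). With 1 pair of differences, this cannot show whether same-numbered libraries were prepared together. A replicate block gave 261 called genes, 12 pathway genes and 3 members, with Smad7 at an adjusted p of 0.0761. Of 467 values of 39 named genes, 380 kept their sign and their side of the threshold, 76 lost a call and 2 gained one. The other 9 changed sign, in genes that were not called in any setting. The sign changes came with 1 library left out, where the log2 fold change ran from -0.0145 to 0.142 for Tgfb3, -0.0994 to 0.0849 for Bmp1, -0.0111 to 0.105 for Bmpr1a, -0.122 to 0.0507 for Tgfbr3, -0.0784 to 0.254 for Smad4, -0.0137 to 0.1001 for Smurf1 and -0.148 to 0.0594 for Tgfb1i1. The cause was not tested. Low reads limit some members: the 95% interval of Tgfb2, at 39.1 to 94.8 normalized reads, ran from -1.62 to 0.08 on the log2 scale.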
